A study of Mus musculus with 8 samples.

Results

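Cells that run short of oxygen turn on a shared set of genes. When oxygen is present, prolyl hydroxylases mark the HIF-α proteins for degradation, and when it is scarce, the stabilised HIF-α subunits pair with ARNT, bind a short core sequence in DNA and raise the transcription of genes for glucose uptake, glycolysis, lactate and acid export, collagen hydroxylation and vessel growth. Solid tumours are known for this response, because cancer cells grow away from vessels and because many of them ferment glucose to lactate even where oxygen is at hand. The expression of 42 genes of this kind was followed here, chosen by symbol for their known roles at a time when earlier results of these data were known. The platform annotation gave 40 of them a probe set of their own, and 39 had a signal high enough to be tested, of 12976 genes tested in all. Gpi1, the second enzyme of glycolysis, and Eno1, an enolase, were not analysed here.

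The tumours were grown by injecting MOPC cells, a mouse oropharyngeal carcinoma line, under the skin of C57BL/6 mice, and tumour RNA was hybridised to Affymetrix mouse arrays. There were 2 tumours in each of 4 groups, which were Tlr3/7/9-/- hosts (KO) at day 6, wild-type hosts (WT) at day 6, KO hosts at day 4 and WT hosts at day 4 after injection. The hosts of the KO groups lacked the endosomal receptors TLR3, TLR7 and TLR9 in every cell, while the injected cells were the same line in all 4 groups and did not carry the deletions of the hosts. The study asked how these receptors act on tumour immunity, and it gives 4 mice for the arrays of day 6. Whether the 2 arrays of a day 4 group came from separate mice is stated nowhere in these sources, so the spread between them may not be a spread between mice. The sex of the mouse behind an array is not stated either. The hosts of the day 6 arrays were 8 to 16 weeks old, and the ages for day 4 are not stated. A tumour sample holds carcinoma cells together with host vessels, fibroblasts and leukocytes, and fewer cells of a type and less RNA per cell cannot be told apart.

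The values were linear signal intensities, scaled by the authors to the same trimmed mean on every array, and each gene was read from its probe set with the highest mean. Signals of different genes were not set against each other, because probe sets differ in brightness. Fold changes are differences of log2(signal + 16), tested with limma in 1 fit of the 4 groups, and a gene was called where its p, adjusted over all 12976 genes, was under 0.05. The day effect over both genotypes is the mean of the day effects in KO and in WT tumours.

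Several features of these 8 arrays went along with the groups. Xist, which is made from the silenced X of female cells, had signals of 5579 to 7121 at day 6 against 44.6 to 142.1 at day 4, and the Y-linked Eif2s3y had 10.2 to 33.0 against 798.1 to 1177, so that host sex and day cannot be told apart. Tlr7 had 10.8 to 80.1 in KO against 382.9 to 673.4 in WT tumours, and Tlr3 had 224 to 427.2 against 543.9 to 811.1. Tlr9 was not lower in KO tumours (84.2 to 128.5 against 20.8 to 137.6), and probes that lie outside a deletion cannot test it. Skeletal muscle genes, 15 of 15 of them measured, were high in KO day 6 replicate 2, KO day 4 replicate 2 and WT day 4 replicate 2, with summed signals of 26201 to 169798 on these arrays and 1252 to 1530 on the others. Cornified skin genes, 12 of 12 of them measured, had a summed signal of 25518 in KO day 6 replicate 2 and 1814 to 3769 on the other arrays. The part of muscle and skin RNA in the results was not tested. The main median is also given without KO day 6 replicate 2 and WT day 4 replicate 2, which had the most muscle RNA, while KO day 4 replicate 2 stayed in. Keratin and adhesion genes of carcinoma, 10 of 10 of them measured and 1 below the signal filter, had a summed signal of 54569 to 67935 on 7 arrays. It was 94354 in KO day 6 replicate 2, the array with the most skin RNA. Some of these genes also moved with the day. Of the 9 tested, 2 rose at day 6 over both genotypes (Cdh1, E-cadherin, by 2.57 and Krt8 by 0.32 on the log2 scale) and Krt19 fell by 1.01. Of 10 macrophage genes tested, 2 fell (Apoe by 0.47 and Adgre1 by 0.36), although 6 of the 10 had a positive fold change (median 0.07). Of 9 neutrophil genes 2 rose (Mmp9 by 1.73 and Trem1 by 0.50). The shares called were 33.3% for carcinoma, 20% for macrophage and 22.2% for neutrophil genes, against 23.2% of all genes tested. The summed signal of 10 macrophage genes was 105109 to 111230 in KO against 137553 to 139518 in WT tumours at day 6. At day 4 it was 93003 to 98927 against 132434 to 168554. Adipocyte genes, 8 of 11 of them measured, had 8354.5 to 8607 in KO against 16285 to 24263 in WT tumours at day 6. At day 4 they had 11092 to 14288 against 14874 to 37614.5. No gene of either list was called between KO and WT tumours at either day, where 0.0154% of all genes tested were. At an unadjusted p under 0.05 from limma, 9 of the 10 macrophage genes were lower in KO tumours at day 4 (423 of all genes). At day 6, 6 of the 10 were lower (520 of all genes) and 1 was higher (304). Of 6 adipocyte genes tested, 2 were lower at day 6 and 1 at day 4. The part of these cell types in the results was not tested.

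Most genes of the low-oxygen response and of glycolysis were lower at day 6 than at day 4, in KO and in WT hosts alike. Over both genotypes 35 of the 39 tested genes had a negative fold change, with a median of −0.67 on the log2 scale, while the median of all genes tested was near 0 (−0.0017). Of the 39, 20 fell and 2 rose by limma's test (adjusted p under 0.05), while 9.56% of all genes tested fell and 13.6% rose (23.2% called in all). With each array centred on its median, 14 of the 39 fell and 3 rose, and 589 of the 3912 genes called among all those tested fell, against 1241 of 3006 without centring. For 21 of the 39, all 4 tumours of day 6 lay below all 4 of day 4, which held for 11.6% of all genes tested. Epas1 alone lay above in the same way (15.7% of all genes tested). The lowest fold changes among the genes called were those of Car9, Ankrd37, P4ha2 and P4ha1, at 4.00-fold, 3.21-fold, 2.37-fold and 2.25-fold lower.

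**Figure D1:**
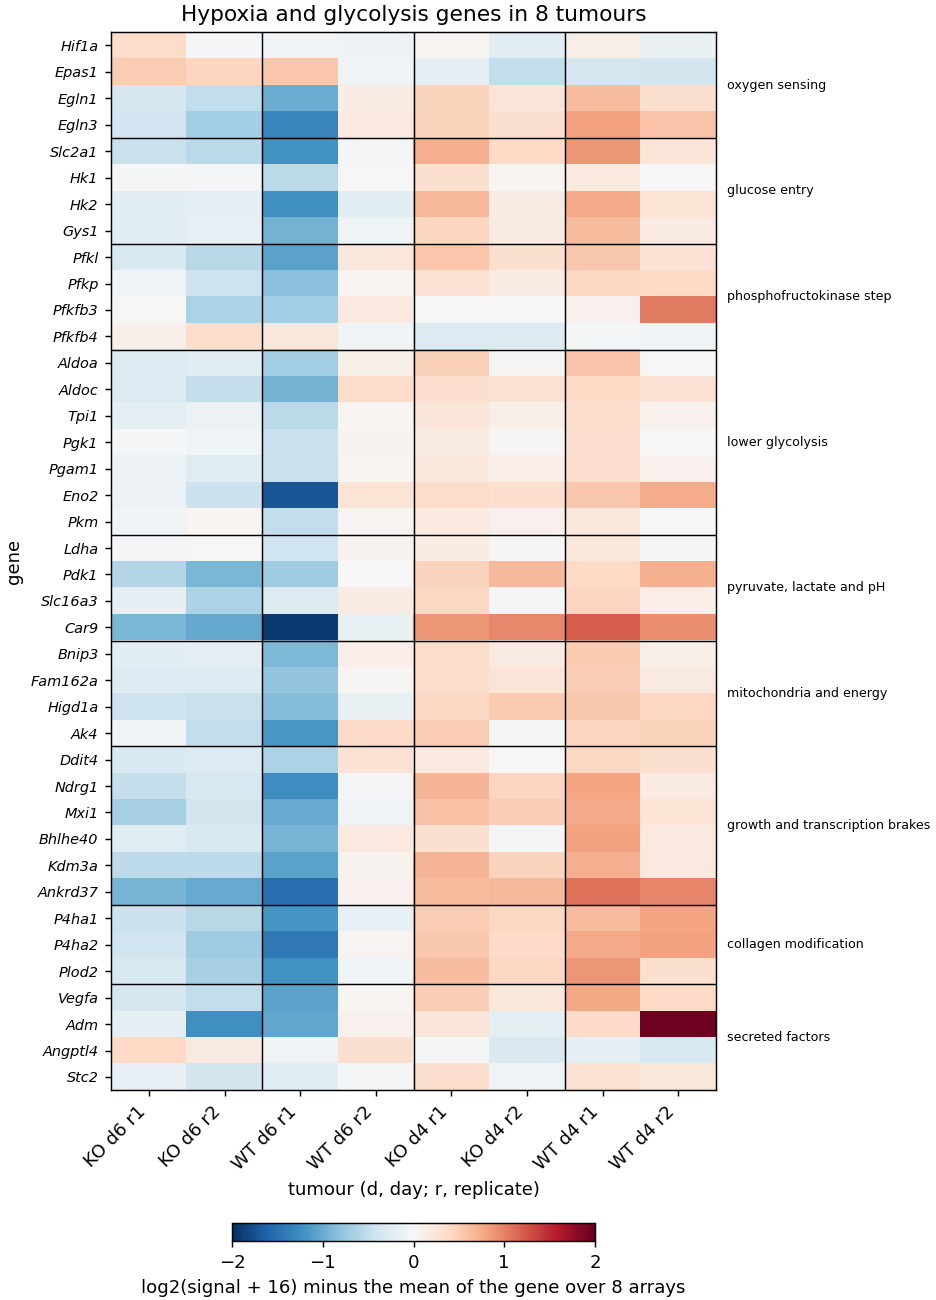
Colour shows log2(signal + 16) of 40 hypoxia and glycolysis genes in each tumour, minus the mean of that gene over the 8 arrays, with columns as tumours (KO, Tlr3/7/9-/- hosts; WT, wild-type hosts; d, day; r, replicate) and rows as genes grouped by role. Most rows are blue at day 6 and red at day 4, WT day 6 replicate 1 is the bluest column, and WT day 6 replicate 2 is pale.

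The count of calls depended on the arrays, while none of the 22 genes called changed sign under any alternative setting. With the 2 arrays of most muscle RNA left out, and KO day 4 replicate 2 kept, the median was −0.69. WT day 6 replicate 1 had the lowest signal for 32 of the 40 genes measured, and when it was left out 18 were called (11.4% of all genes tested) and the median was −0.42. Leaving out KO day 4 replicate 1 gave 7 calls (10.5% of all genes tested), KO day 4 replicate 2 gave 8 (8.96%), KO day 6 replicate 2 gave 11 (14.4%), KO day 6 replicate 1 gave 13 (15.9%) and WT day 4 replicate 1 gave 14 (21%). Pdk1, Car9, Higd1a, Mxi1, Ankrd37 and P4ha1 were called under each of the 19 alternative settings tried for this comparison. Where a gene had several probe sets, 41 of the 42 further probe sets above the signal filter, from 25 genes, changed in the same direction as the one used, and the exception was one of Stc2 at 0.07.

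The core sequence that HIF binds is ACGTG or, more loosely, GCGTG. It was searched on both strands in RefSeq promoter windows of the assembly GRCm38.p6, from 250 bases before to 50 bases after a gene's start, and ACGTG also overlaps the E-box CACGTG of other factors. Of the 40 genes measured, 35 had a window, and 27 of these 35 (77.1%) held the core sequence, against 61.5% of 10454 tested genes and 43.8% of all 32851 windows. The strict form ACGTG was found in 19 of 35 (54.3%), against 25.3% of the tested genes and 19.6% of all windows. Among the 18 genes with a window that fell at day 6, 15 (83.3%) held the core sequence and 11 (61.1%) the strict form. CACGTG was in 8.57% of the 35 windows and in 10% of those of tested genes. A match describes these letters only. The windows printed here are those of the 4 genes called with the lowest fold changes, followed by that of Ldha, which has more matches than any of them and was not called. Capitals mark the core sequence on either strand, where CACGT and CACGC are its reverse complements. Car9 lies at chr4:43506776-43507075 on the plus strand, Ankrd37 at chr8:45999801-46000100 on the minus strand, P4ha2 at chr11:54100674-54100973 on the plus strand, P4ha1 at chr10:59323046-59323345 on the plus strand and Ldha at chr7:46845554-46845853 on the plus strand.
Car9: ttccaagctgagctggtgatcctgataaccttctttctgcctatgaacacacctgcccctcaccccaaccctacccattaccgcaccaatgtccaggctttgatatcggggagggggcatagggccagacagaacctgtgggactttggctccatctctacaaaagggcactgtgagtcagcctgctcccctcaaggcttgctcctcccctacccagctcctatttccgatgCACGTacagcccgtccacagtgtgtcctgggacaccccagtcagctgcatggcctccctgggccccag
Ankrd37: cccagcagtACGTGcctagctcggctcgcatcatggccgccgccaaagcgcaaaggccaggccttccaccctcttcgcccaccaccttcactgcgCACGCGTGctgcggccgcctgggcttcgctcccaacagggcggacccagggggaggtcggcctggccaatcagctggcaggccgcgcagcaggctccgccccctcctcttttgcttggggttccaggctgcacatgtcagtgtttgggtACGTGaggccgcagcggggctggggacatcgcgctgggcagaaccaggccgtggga
P4ha2: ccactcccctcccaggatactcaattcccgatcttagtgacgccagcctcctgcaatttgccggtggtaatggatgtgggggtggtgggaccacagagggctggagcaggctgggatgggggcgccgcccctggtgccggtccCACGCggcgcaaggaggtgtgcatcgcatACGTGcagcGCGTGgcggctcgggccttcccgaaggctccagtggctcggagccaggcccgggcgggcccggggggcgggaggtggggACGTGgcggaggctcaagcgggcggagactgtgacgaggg
P4ha1: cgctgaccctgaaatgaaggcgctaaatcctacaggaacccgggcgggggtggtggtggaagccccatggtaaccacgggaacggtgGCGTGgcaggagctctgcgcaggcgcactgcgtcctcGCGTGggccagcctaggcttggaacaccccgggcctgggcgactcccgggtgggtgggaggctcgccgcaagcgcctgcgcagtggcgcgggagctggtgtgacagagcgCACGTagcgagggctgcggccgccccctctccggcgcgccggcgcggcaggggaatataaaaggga
Ldha: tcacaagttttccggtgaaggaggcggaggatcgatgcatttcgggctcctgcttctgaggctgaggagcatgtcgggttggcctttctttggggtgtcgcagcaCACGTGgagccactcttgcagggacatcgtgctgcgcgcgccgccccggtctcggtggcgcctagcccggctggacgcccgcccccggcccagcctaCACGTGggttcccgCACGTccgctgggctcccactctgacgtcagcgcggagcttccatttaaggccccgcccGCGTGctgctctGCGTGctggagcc
Car9 holds 1 stretch, Ankrd37 and P4ha1 hold 3 each, P4ha2 holds 4 and Ldha holds 5. Because Ldha was picked for its matches, these 5 genes cannot show whether the number of stretches follows the fold change.

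Among the sensors of oxygen, Epas1 rose, Hif1a did not pass the test, and the hydroxylase genes Egln1 and Egln3 fell. Egln2 and Hif1an, hydroxylase genes of the wider oxygen sensing list, did not pass. Their log2 fold changes over both genotypes were 0.09 and 0.16 (adjusted p = 0.464 and 0.347 from limma). Hif3a, a HIF subunit gene of that list, did not pass either (−0.58, adjusted p = 0.17 from limma). Hif1a, which encodes HIF-1α and is mainly controlled through protein stability, had signals of 18843 and 14287 in KO and 14117 and 13560.1 in WT tumours at day 6, against 15225 and 12514 in KO and 15899 and 13271 in WT tumours at day 4. The days overlapped, the log2 fold change was 0.09 (limma adjusted p = 0.616), and its sign turned to −0.14 when its probe sets were averaged. Epas1, which encodes HIF-2α and is rich in endothelium, had 5591 and 5296 in KO and 5807 and 3780.4 in WT tumours at day 6, against 3462 and 2796 in KO and 3075 and 3045 in WT tumours at day 4. All 4 tumours of day 6 lay above all 4 of day 4, and Epas1 rose by 0.71 ± 0.14 on the log2 scale (SE, limma adjusted p = 0.0104). Over the same arrays the summed signal of 11 endothelial genes was 13279 to 14822.5 in KO and 12974 to 18534.5 in WT tumours at day 6, against 10521 to 12839 in KO and 7232.5 to 9014 in WT tumours at day 4. By limma's test 5 of the 11 rose, as did 13.6% of all genes tested. Whether this has a part in the rise of Epas1 was not tested.

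Egln1 (PHD2), the main HIF prolyl hydroxylase and itself a HIF target, had signals of 4988 and 4488 in KO and 3170.3 and 7013 in WT tumours at day 6, against 8621 and 7554 in KO and 9701 and 7914 in WT tumours at day 4. Egln1 fell by 0.83 ± 0.22 on the log2 scale (SE, limma adjusted p = 0.0286). Egln3 (PHD3), a hydroxylase that low oxygen induces strongly, had 3024 and 2457 in KO and 1575 and 4518 in WT tumours at day 6, against 5451 and 4932 in KO and 6980.5 and 5858 in WT tumours at day 4. Egln3 fell by 1.09 ± 0.28 on the log2 scale (SE, limma adjusted p = 0.0261). For both Egln1 and Egln3, WT day 6 replicate 1 was the lowest tumour and WT day 6 replicate 2 stood nearest to the tumours of day 4.

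Genes that bring glucose into the cell and trap it were lower at day 6, 3 of 4 by limma's test. Slc2a1, the glucose transporter GLUT1, had signals of 13520.2 and 12691 in KO and 7975 and 17910.4 in WT tumours at day 6, against 30702 and 24437 in KO and 34048 and 21861 in WT tumours at day 4. All tumours of day 6 were below all those of day 4, and the gene fell by 1.13 ± 0.25 on the log2 scale (SE, limma adjusted p = 0.0146), which is 2.18-fold. Hk2, the hexokinase isoform common in tumours, had 6619 and 6798 in KO and 3262 and 6651 in WT tumours at day 6, against 12166 and 8501 in KO and 13050.4 and 9285 in WT tumours at day 4. Hk2 fell by 0.92 ± 0.23 on the log2 scale (SE, limma adjusted p = 0.0224), again with no overlap of the days. Gys1, the glycogen synthase of muscle and most other tissues, had 1522 and 1585 in KO and 914 and 1678 in WT tumours at day 6, against 2408 and 2015 in KO and 2775 and 1995 in WT tumours at day 4, and it fell by 0.71 ± 0.19 on the log2 scale (SE, limma adjusted p = 0.0325). Hk1, the widely expressed hexokinase, overlapped between the days and did not pass (log2 fold change −0.29, adjusted p = 0.145 from limma).

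At the phosphofructokinase step, which commits sugar to glycolysis, the liver and platelet isoforms fell, and the enzymes that make their activator did not pass the test. Pfkl had signals of 4237 and 3553 in KO and 2482 and 6162 in WT tumours at day 6, against 7732 and 6564 in KO and 7633 and 6424 in WT tumours at day 4. Pfkl fell by 0.86 ± 0.25 on the log2 scale (SE, limma adjusted p = 0.0387). Pfkp had 6716 and 5275 in KO and 3937 and 7238 in WT tumours at day 6, against 8605 and 7882 in KO and 9353 and 9311 in WT tumours at day 4, and it fell by 0.64 ± 0.18 on the log2 scale (SE, limma adjusted p = 0.0349). For both isoforms the tumours of the 2 days did not overlap. Pfkfb3 and Pfkfb4, which make the activator of phosphofructokinase, had log2 fold changes of −0.56 and 0.32 (adjusted p = 0.167 and 0.0607 from limma). Pfkfb3 is a HIF target, yet its values overlapped between the days, and WT day 4 replicate 2 stood alone at 1727 against 820.1 to 875 in the other tumours of day 4.

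The enzymes from aldolase to pyruvate kinase had small fold changes. All 6 tested genes of this stretch were negative, with a median of −0.39, and 1 of them fell by limma's test. Pgam1, phosphoglycerate mutase, had signals of 23731 and 21769.9 in KO and 18914 and 26478 in WT tumours at day 6, against 29699 and 28368 in KO and 32579.8 and 27365 in WT tumours at day 4. Pgam1 fell by 0.38 ± 0.12 on the log2 scale (SE, limma adjusted p = 0.0479), and it was called in 7 of the 19 alternative settings, the fewest of any gene called. Tpi1, triosephosphate isomerase, did not overlap between the days either and came near the threshold (−0.39, adjusted p = 0.0618 from limma). Aldoa and Aldoc, both aldolases, had log2 fold changes of −0.53 and −0.67 (adjusted p = 0.0894 and 0.0801 from limma). Pgk1, the phosphoglycerate kinase gene of the X chromosome, and Pkm, pyruvate kinase, each overlapped between the days at −0.25 and −0.25 (adjusted p = 0.197 and 0.184 from limma). Eno2, the enolase of neurons that many tumours express, lay below the signal filter and was not tested, with signals of 70.2 and 53.2 in KO and 12.4 and 96.6 in WT tumours at day 6, against 105 and 101 in KO and 119.7 and 140.5 in WT tumours at day 4.

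Of 4 genes that set the fate of pyruvate or export acid, 2 fell, Pdk1 and Car9. Ldha, which turns pyruvate into lactate, had signals of 40767 and 41672 in KO and 31607 and 43700.4 in WT tumours at day 6, against 46484 and 42477 in KO and 49176 and 40926 in WT tumours at day 4. Its days overlapped, and its log2 fold change of −0.19 did not pass (limma adjusted p = 0.27). Pdk1, the kinase that shuts pyruvate out of the mitochondria by inactivating pyruvate dehydrogenase, had 5389 and 4302 in KO and 4915 and 8097 in WT tumours at day 6, against 11009 and 12617 in KO and 10715 and 13299 in WT tumours at day 4. All tumours of day 6 were below all those of day 4, KO day 6 replicate 2 was the lowest, and Pdk1 fell by 1.10 ± 0.16 on the log2 scale (SE, limma adjusted p = 0.00454). Slc16a3, the lactate exporter MCT4, had 314 and 229.9 in KO and 298 and 403 in WT tumours at day 6, against 488 and 356 in KO and 496 and 402 in WT tumours at day 4, with overlapping days and a log2 difference of −0.48 ± 0.19 (SE, limma adjusted p = 0.0998).

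Car9, a carbonic anhydrase on the cell surface that is used as a marker of low oxygen, had the lowest fold change of the 39 hypoxia and glycolysis genes tested. Its signals were 2153 and 1996 in KO and 1070.5 and 3690.4 in WT tumours at day 6, against 7527 and 7948 in KO and 9503 and 7821 in WT tumours at day 4. The KO tumours of day 6 lay close together between the WT tumours of that day, and every tumour of day 4 was above all of them. The log2 fold change of Car9 was −2.00 ± 0.32 (SE, limma adjusted p = 0.00523). Within each genotype it was also called, at −1.89 in KO (limma adjusted p = 0.0464) and −2.11 in WT hosts (limma adjusted p = 0.0351).

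**Figure D2:**
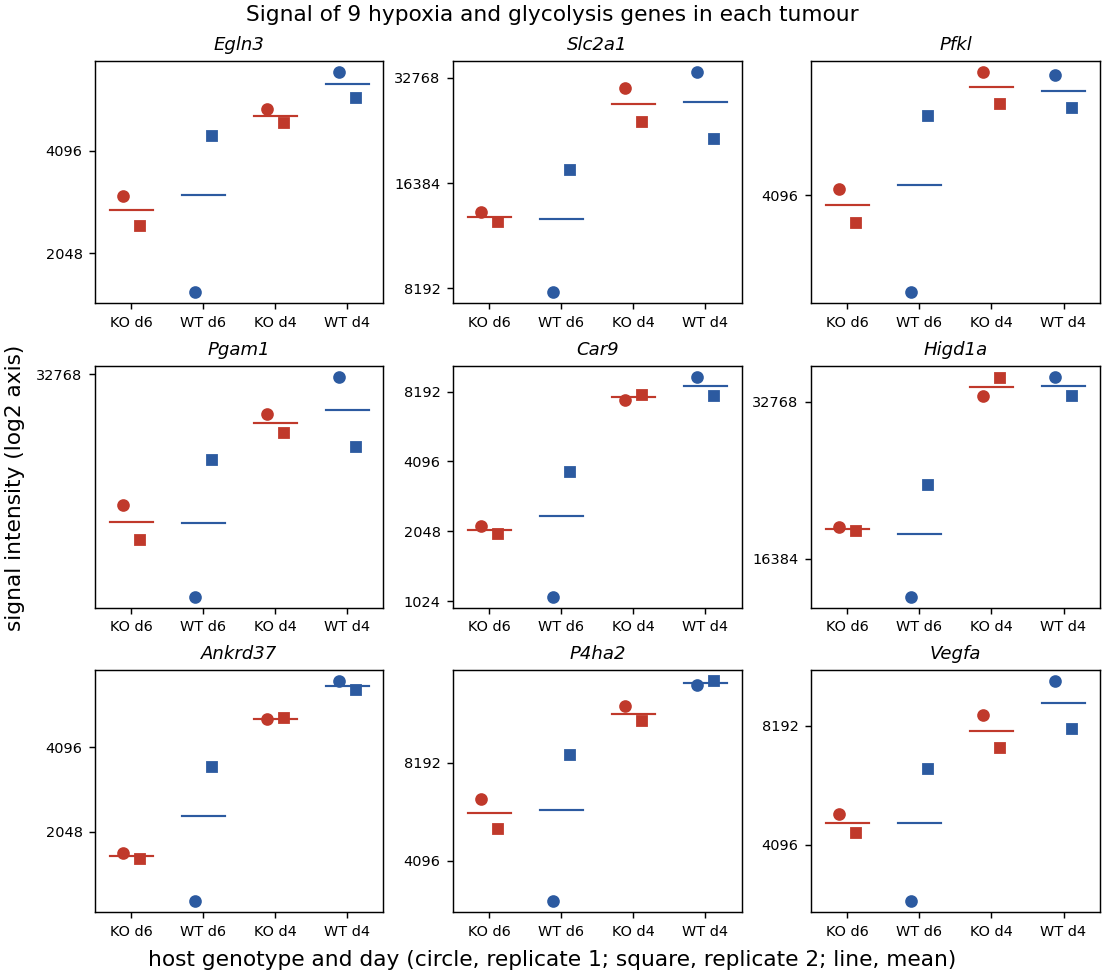
Signal intensity on a log2 axis of 9 genes in the 8 tumours, by host genotype and day, with circles for replicate 1, squares for replicate 2 and a line at the mean of each pair. In all 9 genes the 4 tumours of day 6 lie below the 4 of day 4, and the pair of WT day 6 is the widest, for Car9 from 1071 to 3690.

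Of 4 mitochondrial genes that low oxygen induces, 2 fell. Higd1a, a protein of the inner mitochondrial membrane, had signals of 18883 and 18531 in KO and 13876 and 22688 in WT tumours at day 6, against 33570.3 and 36410.4 in KO and 36577 and 33548 in WT tumours at day 4. Higd1a fell by 0.94 ± 0.14 on the log2 scale (SE, limma adjusted p = 0.00456), and it was called in KO (−0.90, adjusted p = 0.0403 from limma) and in WT hosts (−0.98, adjusted p = 0.0318 from limma) taken alone. Fam162a, a mitochondrial protein linked to cell death in low oxygen, had 23927 and 23504 in KO and 16552 and 28939.6 in WT tumours at day 6, against 36421 and 34135 in KO and 40157 and 32077 in WT tumours at day 4, and it fell by 0.64 ± 0.16 on the log2 scale (SE, limma adjusted p = 0.0261). Bnip3, a receptor for the removal of mitochondria by autophagy, and Ak4, an adenylate kinase of the mitochondrial matrix, overlapped between the days. Their log2 fold changes were −0.58 and −0.68 (adjusted p = 0.0751 and 0.141 from limma).

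Of 6 genes that restrain growth or regulate transcription, 4 fell and the other 2 had negative fold changes. Ankrd37, an ankyrin repeat protein known as a HIF-1 target, had signals of 1721 and 1633 in KO and 1157 and 3494 in WT tumours at day 6, against 5153 and 5208 in KO and 7068 and 6552 in WT tumours at day 4. The KO pair of day 6 was tight, the WT pair was wide, and both lay below every tumour of day 4. Ankrd37 fell by 1.68 ± 0.28 on the log2 scale (SE, limma adjusted p = 0.00626). It was called in WT hosts alone (−1.75, adjusted p = 0.0421 from limma) and missed the threshold narrowly in KO hosts (−1.62, adjusted p = 0.051 from limma).

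Mxi1, an antagonist of Myc, had signals of 5997 and 7401 in KO and 4733 and 8960.1 in WT tumours at day 6, against 14228 and 13310.4 in KO and 16160 and 11506 in WT tumours at day 4. Mxi1 fell by 1.05 ± 0.20 on the log2 scale (SE, limma adjusted p = 0.0089). Kdm3a, a histone demethylase that uses oxygen, had 4019 and 4002 in KO and 2736 and 6022 in WT tumours at day 6, against 9194 and 7868 in KO and 9547 and 6604 in WT tumours at day 4. Here, too, WT day 6 replicate 2 was the highest tumour of day 6 and stood just under the lowest of day 4, and Kdm3a fell by 1.02 ± 0.23 on the log2 scale (SE, limma adjusted p = 0.0162). Ndrg1, a stress response gene of epithelia, had 14015 and 15661 in KO and 8244 and 19140.5 in WT tumours at day 6, against 31022 and 26218 in KO and 33632 and 21714 in WT tumours at day 4, and it fell by 1.02 ± 0.25 on the log2 scale (SE, limma adjusted p = 0.0219). Ddit4 (REDD1), an inhibitor of mTORC1, and Bhlhe40, a transcriptional repressor, overlapped between the days at −0.46 and −0.64 (adjusted p = 0.0964 and 0.0836 from limma).

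The 3 collagen hydroxylases among the 39 genes fell, with a median of −1.17, while Plod1, a lysyl hydroxylase of the wider low-oxygen list, did not pass (−0.41, limma adjusted p = 0.121). P4ha1, a catalytic subunit of collagen prolyl hydroxylase, had signals of 5596 and 5119.6 in KO and 3341 and 6713 in WT tumours at day 6, against 10726 and 10094 in KO and 11689 and 13129 in WT tumours at day 4. P4ha1 fell by 1.17 ± 0.19 on the log2 scale (SE, limma adjusted p = 0.00564), and in WT hosts alone it was called at −1.38 (limma adjusted p = 0.028). P4ha2, the other catalytic subunit, had 6360.3 and 5139 in KO and 3084 and 8665 in WT tumours at day 6, against 12210 and 10970.5 in KO and 14189 and 14597 in WT tumours at day 4. P4ha2 fell by 1.24 ± 0.27 on the log2 scale (SE, limma adjusted p = 0.0146). Plod2, a lysyl hydroxylase that shapes collagen crosslinks, had 4126 and 3263 in KO and 2234 and 5004 in WT tumours at day 6, against 7987 and 6865 in KO and 9549 and 6494 in WT tumours at day 4, and it fell by 1.12 ± 0.24 on the log2 scale (SE, limma adjusted p = 0.0141). The days overlapped in none of the 3. Of 10 fibroblast genes on the same arrays, 4 fell and 1 rose (50% called, against 23.2% of all genes tested). Their summed signal was 166798 to 197660 at day 6 against 198746 to 227981 at day 4. Whether this has a part in the collagen hydroxylases was not tested.

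The secreted factors did not move as one. Vegfa, the main growth factor of vessels, had signals of 4898 and 4394 in KO and 2951 and 6367 in WT tumours at day 6, against 8724 and 7218 in KO and 10639 and 8049.5 in WT tumours at day 4. Vegfa fell by 0.93 ± 0.22 on the log2 scale (SE, limma adjusted p = 0.0197), with no overlap of the days. Angptl4, an inhibitor of lipoprotein lipase that low oxygen and fatty acids induce, had 9354 and 8017 in KO and 6774 and 8824 in WT tumours at day 6, against 6876 and 5766 in KO and 6261 and 5708 in WT tumours at day 4. It rose by 0.41 ± 0.11 on the log2 scale (SE, limma adjusted p = 0.0329), although WT day 6 replicate 1 lay below KO day 4 replicate 1, and it was called in 9 of the 19 alternative settings. Adm, the vessel-dilating peptide adrenomedullin, had 783 and 369 in KO and 422 and 943 in WT tumours at day 6, against 1058 and 774 in KO and 1161 and 3451 in WT tumours at day 4. Its log2 fold change of −1.19 had a standard error of 0.40 and did not pass (limma adjusted p = 0.0622). Stc2, a secreted glycoprotein, overlapped between the days at −0.39 (limma adjusted p = 0.105).

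Taken within 1 host genotype the day effect had fewer calls and the same direction. In KO tumours 35 of the 39 genes had a negative fold change, with a median of −0.57, and 3 fell by limma's test (Pdk1, Car9 and Higd1a), where 2.52% of all genes tested fell. In WT tumours 36 of 39 were negative, with a median of −0.83, and 4 fell (Car9, Higd1a, Ankrd37 and P4ha1), where 1.66% of all genes fell. At an unadjusted p under 0.05, 16 of the 39 were lower in KO tumours, as were 1589 of all 12976 genes, and 24 of the 39 were lower in WT tumours, as were 1331 of all genes. Both tumours of day 6 lay below both of day 4 for 33 of the 39 genes in KO hosts (30.7% of all genes tested) and for 25 of 39 in WT hosts (24.6% of all genes tested). Pdk1 reached −1.29 in KO (limma adjusted p = 0.0254) and −0.92 in WT hosts (limma adjusted p = 0.0568).

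**Figure D3:**
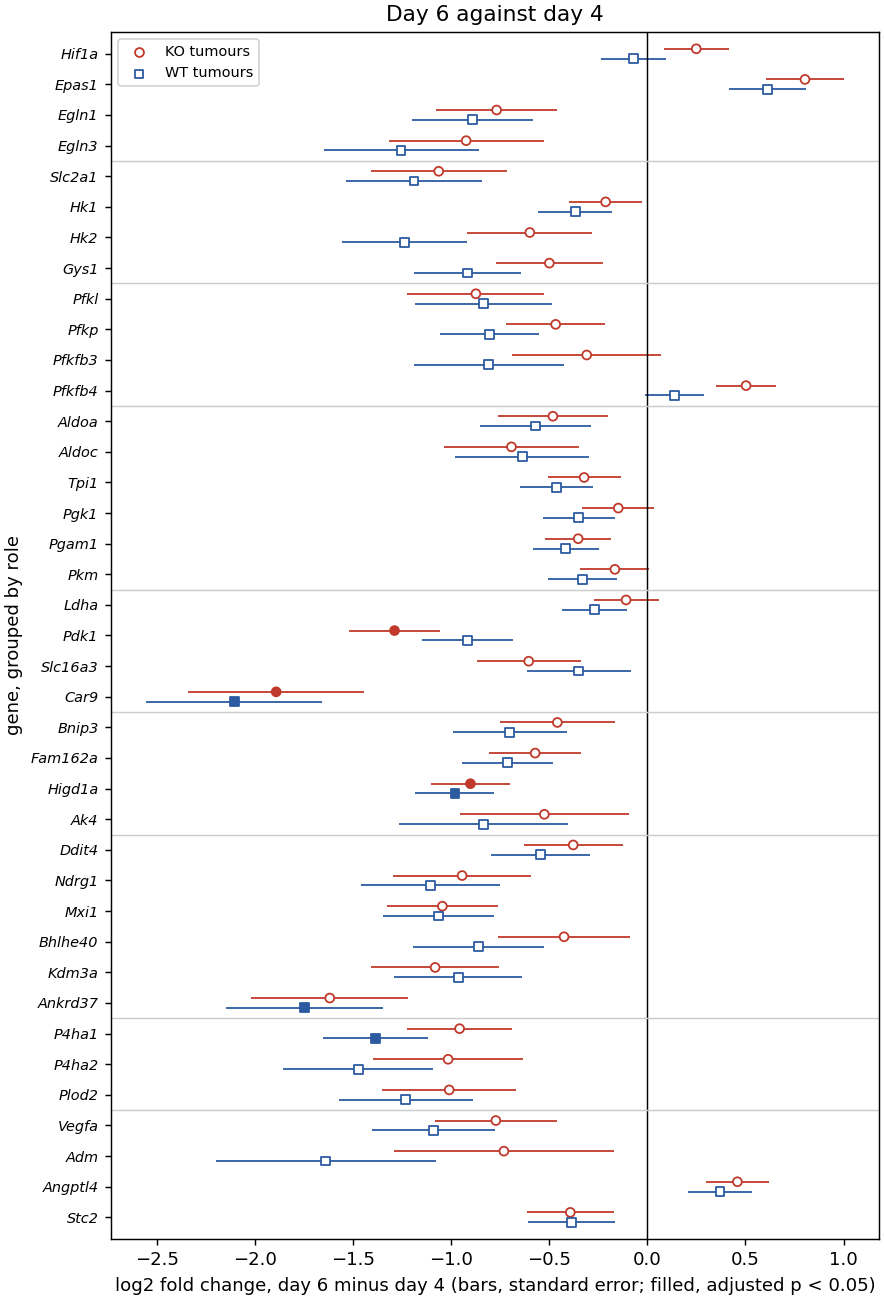
Log2 fold changes of day 6 minus day 4 for the 39 tested genes, in KO tumours (red circles) and WT tumours (blue squares), with standard errors as bars and filled symbols for an adjusted p under 0.05. All but Hif1a, Epas1, Pfkfb4 and Angptl4 lie left of 0 in both genotypes, and Car9 lies farthest left in both.

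The 2 estimates share no array. Across the 39 genes, which are not independent replicates, they correlated with a Pearson r of 0.91 and a Spearman rho of 0.88, against 0.63 and 0.65 over all 12976 genes. A test of whether the day effect differs between the genotypes, which is the same contrast as the difference of the KO effects between the days, called 0 of the 39 genes and 0% of all genes tested with limma. At an unadjusted p under 0.05 it also gave 0 of the 39 (568 of all genes). The median difference over the 39 genes, 0.16, rested on the WT tumours of day 6. It was 0.62 without WT day 6 replicate 2 and −0.26 without WT day 6 replicate 1. The calls within a genotype changed with every array left out. In WT tumours 26 genes were called without WT day 6 replicate 2 (6.86% of all genes tested), 1 when either KO array of day 6 or WT day 4 replicate 2 was left out (3.62% to 6.41%), and 0 when any of the other 4 arrays was (0.0308% to 2.76%). In KO tumours 17 were called when either WT array of day 6 was left out (6.09% and 6.13% of all genes tested), 6 when either WT array of day 4 was (10.3% and 10.5%), and 0 when any of the 4 KO arrays was (0.0231% to 1.23%).

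No gene of the group was called between KO and WT hosts at either day. At day 6, 0 of the 39 genes were called between KO and WT tumours (0.0154% of all genes tested), 29 had a positive and 10 a negative fold change, and the median was 0.10. At day 4, 0 were called (0.0154% of all genes tested), 9 were positive and 30 negative, and the median was −0.08. This split did not hold with each array centred on its median (19 positive and 20 negative, median −0.0010) and turned when WT day 4 replicate 1 (24 positive and 15 negative, median 0.06) or KO day 4 replicate 2 (21 positive and 18 negative, median 0.02) was left out. Over both days 0 were called as well (0.0308% of all genes tested), with a median of 0.01. At an unadjusted p under 0.05, limma gave 0 of the 39 at day 6 (824 of all genes) and 0 at day 4 (922 of all genes). After Benjamini-Hochberg adjustment the methods' t-test called 0 of the 39 at either day. It also called 0 of all 12976 genes, so its result cannot set these genes apart. These tests had 2 tumours a group, and a p that misses the threshold does not show that the genotypes were alike.

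The 3 genes with the largest fold changes between KO and WT tumours at day 6 were Hk2, Pdk1 and Slc16a3, with the signals already given. Hk2 had a log2 fold change of 0.52 (SE 0.32, limma adjusted p = 0.846), where the KO pair lay at the level of WT replicate 2 and above WT replicate 1. Pdk1 had −0.39 (limma adjusted p = 0.837) and Slc16a3 −0.35 (limma adjusted p = 0.871), with overlapping groups. No gene had both KO tumours below both WT tumours (20.9% of all genes tested), and 1, Hif1a, had both above (16.1% of all genes tested).

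At day 4 the 3 genes were Adm, Pfkfb3 and Ankrd37. Adm had a log2 fold change of −1.13 (SE 0.56, limma adjusted p = 0.746), and it rested on WT day 4 replicate 2, at 3451 the highest of the 8 tumours, without which Adm had −0.35. Pfkfb3 had −0.57 (limma adjusted p = 0.86) and was high in that same tumour, without which it had −0.08. WT day 4 replicate 2 was also the tumour with the most muscle RNA, and the part of this in either gene was not tested. Ankrd37 had −0.39 (limma adjusted p = 0.931), with both KO tumours below both WT tumours, as in 9 of the 39 genes (16.8% of all genes tested). The reverse order was seen in 0 of the 39 (19.6% of all genes tested). The same genes led over both days, with Adm at −0.68, Ankrd37 at −0.33 and Pfkfb3 at −0.32 (adjusted p = 0.677, 0.79 and 0.787 from limma). The largest differences of the KO effects between the days were those of Adm at 0.91, Hk2 at 0.64 and Pfkfb3 at 0.50 (adjusted p = 0.995 for all 3 from limma).

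**Figure D4:**
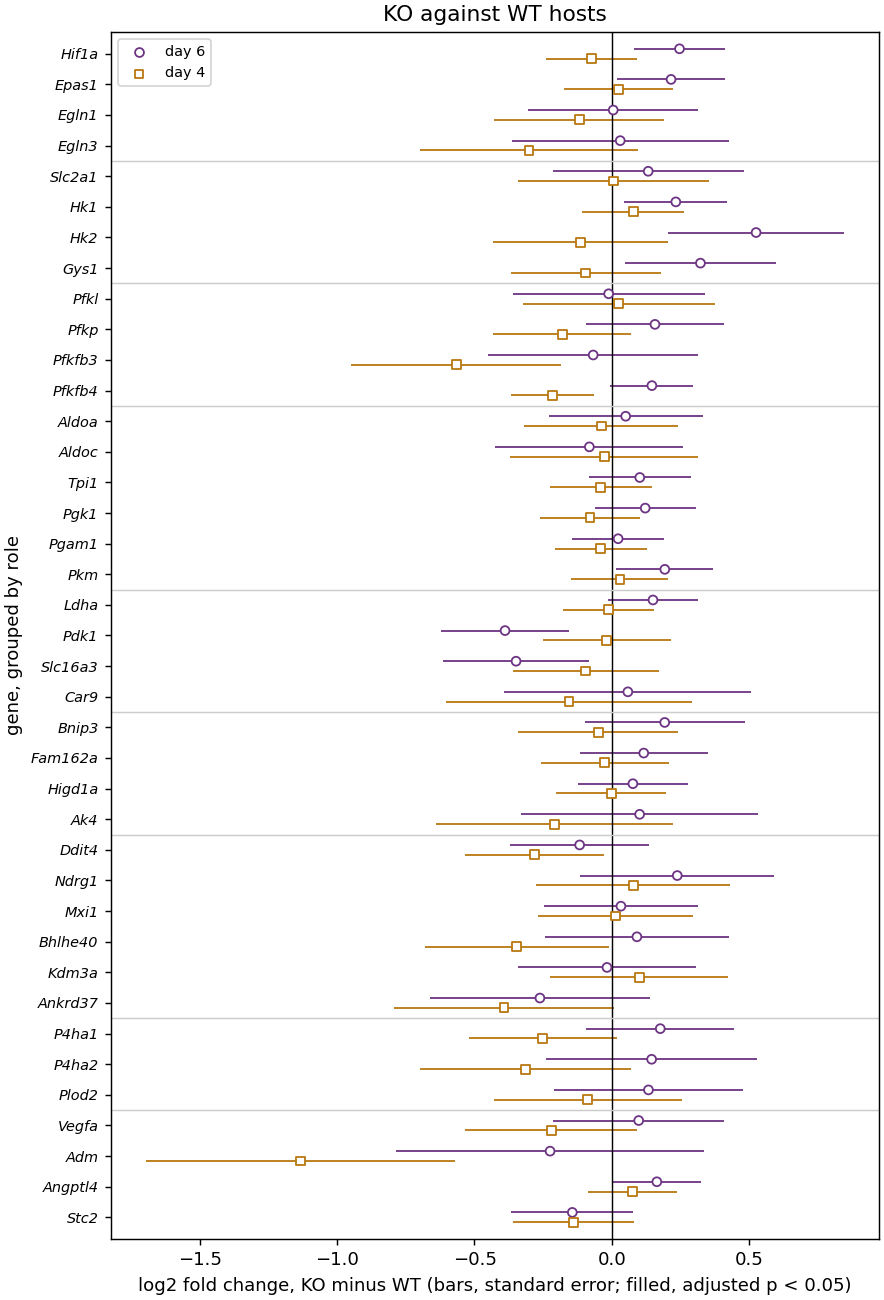
Log2 fold changes of KO minus WT for the 39 tested genes at day 6 (purple circles) and day 4 (orange squares), with standard errors as bars. No symbol is filled, since 0 genes had an adjusted p under 0.05, and Adm at day 4 lies farthest from 0 at −1.13.

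The day 6 comparison rests on 2 WT tumours that differed from each other across the whole group of genes. WT replicate 1 was below WT replicate 2 for 37 of the 40 genes, with a median difference of −0.93 on the log2 scale, while over all genes tested the median difference was 0.01 and the median size of a difference was 0.21. In the other pairs the median difference of replicate 1 minus replicate 2 was 0.10 in KO at day 6, 0.19 in KO at day 4 and 0.25 in WT at day 4. Both KO tumours of day 6 lay between the WT tumours of that day for 32 of the 40 genes, and in 31 of these WT replicate 1 was the lowest. WT replicate 2 was still below every tumour of day 4 for 22 of the 40 genes.

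Between these 2 WT tumours Car9 differed by −1.77, Ankrd37 by −1.58, Ak4 by −1.56 and Egln3 by −1.51, while Hif1a differed by 0.06 and Stc2 by −0.18 on the log2 scale. Without WT replicate 1 the median fold change of KO against WT at day 6 was −0.37, and without WT replicate 2 it was 0.52, with 0 genes called either way. At an unadjusted p under 0.05 there were 12 of the 39 without WT replicate 1 (872 of all genes) and 26 without WT replicate 2 (654 of all genes), with the fold changes of 35 genes negative in the first case and of 35 positive in the other. The gap within WT hosts went along with the day effect measured in KO hosts, which shares no array with it. Across the 39 genes r was 0.82 and rho 0.75, against 0.20 and 0.29 over all genes tested. Other genes of the low-oxygen response showed the same gap, 22 of 25 being lower in WT replicate 1 with a median of −0.62. Of 24 other genes of glycolysis and glycogen 14 were lower (median −0.15), while 18 of 22 genes of oxidative phosphorylation were higher (median 0.13).

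**Figure D5:**
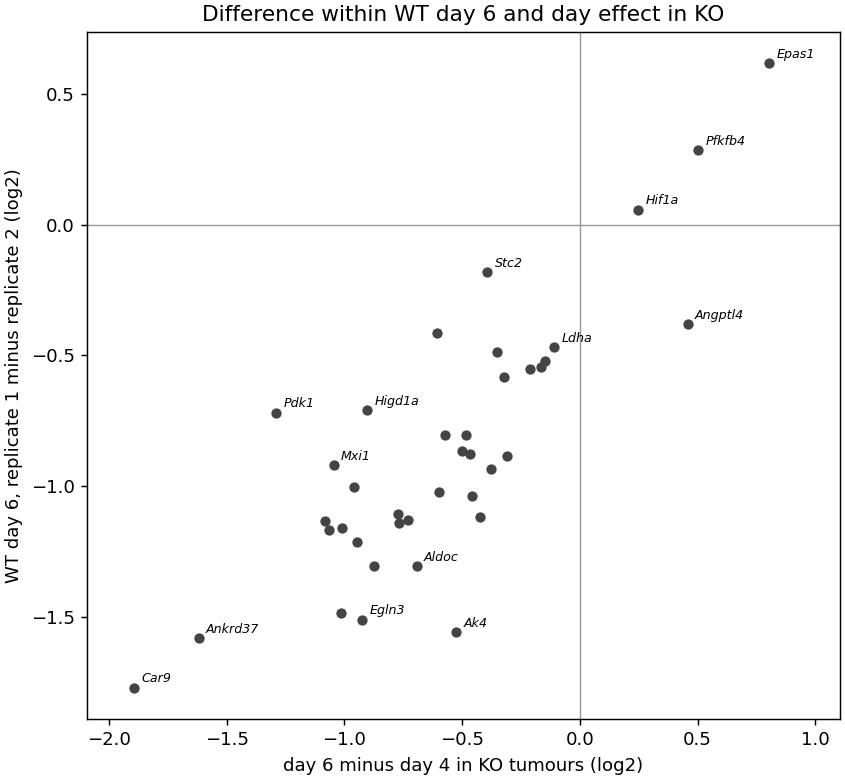
Each point is 1 of the 39 tested genes, with the day effect in KO tumours (day 6 minus day 4, log2) on the horizontal axis and the difference between the 2 WT tumours of day 6 (replicate 1 minus replicate 2, log2) on the vertical axis. Genes with a more negative day effect tended to be lower in WT replicate 1 (r = 0.82 across genes), with Car9 and Ankrd37 at the lower left and Epas1 at the upper right.

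Neighbouring pathways were followed with lists that left out the 42 genes. Of 13 other genes of the oxygen sensing machinery, 1 fell at day 6 over both genotypes and 0 rose, with a median of 0.03. It was Cited2, a HIF target that competes with HIF for the coactivator p300 (−0.46, adjusted p = 0.0399 from limma). The share called was 7.69%, against 23.2% of all genes tested. Of 24 other genes of glycolysis and glycogen, 5 fell and 1 rose, with a median of −0.36. This share, 25%, lay near that of all genes tested. Slc2a3, a glucose transporter, fell by 0.95 and Pdk2, a further kinase of pyruvate dehydrogenase, by 0.91, while Hk3, a hexokinase of leukocytes, rose by 1.07 on the log2 scale.

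Of 25 other genes of the low-oxygen response, 8 fell and 1 rose, with a median of −0.41. The share called was 36%, against 23.2% of all genes tested. Ero1a, an oxidase of protein folding, fell by 1.34 on the log2 scale, Hmox1, the inducible haem oxygenase, by 1.25, and Vldlr, a lipoprotein receptor, by 1.16. The mitochondrial pathways were followed as well. Of 16 genes of the tricarboxylic acid cycle 3 rose and 0 fell (median 0.15), among them Fh1, fumarase, at 0.48. Of 22 genes of oxidative phosphorylation 5 rose and 0 fell (median 0.13), among them Cyc1, cytochrome c1 of the third respiratory complex, at 0.59. These shares, 18.8% and 22.7% of the genes, lay near the 23.2% of all genes called in either direction.

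Genes of a list of ATF4 and the stress response also moved, 8 of 17 falling and 3 rising (64.7% called, against 23.2% of all genes tested). Slc7a11, the cystine transporter, fell by 1.78 on the log2 scale and Ddit3 (CHOP) by 1.44, while Phgdh, an enzyme of serine synthesis, rose by 0.67. All 11 proliferation genes rose (13.6% of all genes tested), with a median of 1.22. Their summed signal was 84253 to 84361 in KO and 60814 to 81472 in WT tumours at day 6, against 43858 to 49045 in KO and 29585.5 to 34306 in WT tumours at day 4. Red cell genes, 3 of 8 of them measured, had a summed signal of 63.6 to 80.1 in KO and 125 to 125.3 in WT tumours at day 6, against 331.5 to 555.1 in KO and 733.5 to 846.5 in WT tumours at day 4. The part of these changes in the fall of the hypoxia and glycolysis genes was not tested, and neither was that of host sex, which cannot be told apart from the day.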

How the data were processed

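RNA of 8 MOPC tumours was measured on Affymetrix MG-430_2.0 arrays. For each probe set the authors deposited a linear signal intensity. The submitters' processing notes name MAS5 with no version. Every array had been scaled, with a 2% trimmed mean of 1000 and a median of 133.2 to 175.2, and the Spearman correlation between replicates was 0.941 to 0.953. The number of arrays limits the precision. The paper and the labels give different amounts of input RNA.

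Of 45101 probe sets, 34958 had 1 gene symbol in the platform annotation, 932 had several and 9211 had none, and only the first were named. By Entrez identifier 34754 matched the GRCm38.p6 table, with 0 symbols changed. For each of 18194 genes the probe set with the highest mean on the log2 scale was used, and 12976 genes were tested, those whose mean reached the 40th percentile over probe sets.

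Values of log2(signal + 16) of 4 groups were compared in R 4.3.3 with limma 3.58.1, using all 8 arrays, 4 residual degrees of freedom and a trend in the variance. P-values were adjusted by Benjamini-Hochberg over all genes tested and are two-sided. They reflect how far the 2 samples of each group lay apart, and the added 16 shrinks fold changes of dim genes. The fit was tested on simulated data. Genes are given with every array where they were called, or, in comparisons with none called, where they had the 3 largest fold changes. The genes and lists were chosen with earlier results of these data known, so no list was tested as a set. Same-numbered replicates were not treated as pairs. The alternatives tried were centring on the median, quantile normalization, other pseudocounts, a floor, other filters, the mean of all probe sets, no trend, a replicate block, the compared groups alone, the methods' t-test and leaving out arrays.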

Additional observations from a re-analysis of the deposited data

How the results depend on the processing

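The median fold change of the 39 genes between day 6 and day 4 was negative under every setting tried. When each of the 8 arrays was left out in turn, it lay between −0.92 and −0.42 over both genotypes, between −1.29 (without WT day 6 replicate 2) and −0.31 (without WT day 6 replicate 1) in WT tumours, and between −0.71 and −0.39 in KO tumours. The number of genes called lay between 7 and 31 over both genotypes, between 0 and 26 in WT and between 0 and 17 in KO tumours, and each of these fits had fewer samples. Between KO and WT hosts 0 genes were called under every setting. The median at day 6 lay between −0.37 (without WT day 6 replicate 1) and 0.52 (without WT day 6 replicate 2), that at day 4 between −0.23 and 0.06, that over both days between −0.22 and 0.21, and that of the difference between the days between −0.26 and 0.62.

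In this paragraph, percentages in brackets are the shares of all genes tested that were called. Over both genotypes 12 genes were called without a trend in the variance (18.4%). In WT tumours, where 4 were called (5.83%), there were 7 with a filter at the 60th percentile (9.03%) and 2 with the mean of all probe sets (3.85%). The count was 0 without a trend (0.0694%), with the compared groups alone (0.0848%) and by the methods' t-test (0%). In KO tumours, where 3 were called (6.23%), there were 5 with centring (10.3%) and with the filter at the 60th percentile (9.16%). With the compared groups alone there were 21 (13.5%), and 1 with no filter (2.87%) and with the mean of all probe sets (3.24%). The count was 0 without a trend (0.57%) and by the methods' t-test (0.00771%). The cause of these changes was not tested. The replicate number, which the labels do not explain, was also used as a block. Deviations of same-numbered samples correlated at over 0.1 in 3 of the 6 pairs of groups (−0.12 to 0.27), short of all 6. With this block 17 genes were called over both genotypes (19.4%), 3 in WT (3.57%) and 1 in KO tumours (2.5%).

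Centring each array on its median moved the median of all genes to 0.17 and that of the 39 genes to −0.49, which is −0.66 relative to all genes, with 14 called lower and 3 higher against 4.54% of all genes called lower. Among the day effects of named genes it turned 4 signs, none of a called value, Hif1a in WT tumours (0.11) and Pgk1 (0.018), Pkm (0.00073) and Ldha (0.058) in KO tumours. Between KO and WT hosts it changed the split of the 39 genes to 19 positive and 20 negative at day 4 (9 and 30 without centring) and to 29 positive and 10 negative over both days (20 and 19). With the mean of all probe sets Hif1a turned to −0.10 in KO tumours and to −0.14 over both genotypes. Leaving out arrays, 1 at a time or the 2 with the most muscle RNA together, turned the sign of further values. The day effect of Hif1a lay between −0.20 and 0.060 in WT tumours and between −0.010 and 0.19 over both genotypes. In WT tumours that of Pfkfb4 lay between −0.0028 and 0.28 and that of Aldoc between −1.29 and 0.014, and in KO tumours that of Pfkfb3 lay between −0.63 and 0.014. For KO against WT over both days Ankrd37 lay between −0.72 and 0.068 and Pfkfb3 between −0.56 and 0.086. None of the values of turned sign was called, while Aldoc at −1.29, without WT day 6 replicate 2, was called by limma. Over both genotypes, 5 of the 6 lower enzymes of glycolysis among the 39 genes did not pass after adjustment. At an unadjusted p under 0.05 from limma 4 of the 6 were lower, as were 2190 of all 12976 genes.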
